A study of Mus musculus with 48 samples.

Results

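The HoxA genes are transcription factor genes of 1 of the 4 Hox gene clusters of the mouse, and Hoxa2, Hoxa3, Hoxa4, Hoxa5, Hoxa7, Hoxa9, Hoxa10 and Hoxa11 are described here cell kind by cell kind in the E18.5 hypothalamus. They are the 8 HoxA members of the series, out of 16510 genes in the count table, and all 8 are accounted for in each comparison. They were taken by name and not by any value. Single cells of the hypothalamus were captured in droplets (ddSEQ) and their transcripts were counted as unique molecular identifiers (UMIs), each of which stands for 1 captured transcript, read at its 3' end. Control embryos were Eed fl/fl, with both Eed alleles floxed and no Cre. Eed-cKO embryos were Eed fl/fl; Sox1-Cre/+, with the same floxed alleles and 1 Sox1-Cre allele, which deletes exons 3 to 6 of Eed in cells with Sox1 activity. Both groups were on a mixed B6:129S1 background and were collected at E18.5, shortly before birth, without any other treatment. Sox1 marks neural cells from the early neural plate on, so that vessels and microglia of Eed-cKO embryos are not thought to carry the deletion. The hypothalamus of each embryo was divided into pieces before dissociation, and each embryo has 1 to 4 libraries here, so that the embryo is the replicate. There were 6 control embryos (4 male, 2 female; 22 libraries) and 9 Eed-cKO embryos (4 male, 5 female; 26 libraries), and no litter held both genotypes, so that litter and genotype cannot be told apart.

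Hox genes give cells of the hindbrain and spinal cord their position along the body axis. Within a cluster they lie in the order of their domains, with 3' genes such as Hoxa2 active up to the hindbrain and 5' genes such as Hoxa11 active further back. In the forebrain, to which the hypothalamus belongs, the clusters are silent and carry H3K27me3, the histone mark that polycomb repressive complex 2 (PRC2) writes and for which the complex needs its subunit Eed.

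In GRCm38 the members lie on the minus strand of chromosome 6 between 52162417 and 52245810, a span of 83.4 kb. Hoxa2 (52162417 to 52164831) patterns the hindbrain and the second branchial arch, Hoxa3 (52169062 to 52213336) acts in the hindbrain and in the thymus and parathyroid, and Hoxa4 (52189671 to 52191753) acts in the neck vertebrae. Hoxa5 (52201754 to 52204587) is needed in the lung and in the neck and trunk. Hoxa7 (52214491 to 52221854), Hoxa9 (52223100 to 52231089), Hoxa10 (52231197 to 52240854) and Hoxa11 (52242106 to 52245810) belong to the trunk and tail end of the cluster, and Hoxa9 is also known from blood progenitors, Hoxa10 and Hoxa11 from the uterus, and Hoxa11 from the forearm. Exons of Hoxa3, Hoxa7 and Hoxa11 overlap those of genes on the other strand that are also in the count table (Hoxaas2 and Hoxaas3, Hoxaas3, and Hoxa11os). The Mira transcript shares its lower coordinate with Hoxa7. Whether the counting used strand is not given in the sources used here, so that UMIs of Hoxa3, Hoxa7 and Hoxa11 and of these partners cannot be told apart with certainty.

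RefSeq (GRCm38.p6) promoter windows, from 250 bases before to 50 bases after the start, were found for 7 of the 8 members. The CG dinucleotide was counted in each, since CG-rich promoters are known to gather PRC2. The 8 windows, with 2 starts of Hoxa10, held 4 to 29 CG, against a median of 7 over 32851 promoters, and 7 of the 8 were above that median. The windows of Hoxa5, with the highest count, of Hoxa9, with the lowest, and of Hoxa2, at the 3' end of the cluster, are printed 5' to 3' on the minus strand to show how far members that were detected in the same cells differ in promoter sequence. Capitals mark each CG, which reads the same on both strands.
Hoxa2, chr6:52164782-52165081: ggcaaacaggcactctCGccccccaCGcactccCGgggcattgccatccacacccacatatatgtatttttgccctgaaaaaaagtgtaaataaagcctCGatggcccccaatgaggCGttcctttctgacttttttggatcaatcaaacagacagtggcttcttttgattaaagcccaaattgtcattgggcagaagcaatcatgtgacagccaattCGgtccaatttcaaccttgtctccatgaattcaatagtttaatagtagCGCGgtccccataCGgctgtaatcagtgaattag
Hoxa5, chr6:52204538-52204837: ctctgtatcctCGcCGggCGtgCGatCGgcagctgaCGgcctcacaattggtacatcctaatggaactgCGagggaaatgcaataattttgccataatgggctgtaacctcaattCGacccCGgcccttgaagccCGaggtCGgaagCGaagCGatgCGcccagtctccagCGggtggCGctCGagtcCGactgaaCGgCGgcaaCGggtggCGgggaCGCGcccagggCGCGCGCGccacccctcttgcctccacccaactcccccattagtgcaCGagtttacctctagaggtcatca
Hoxa9, chr6:52227321-52227620: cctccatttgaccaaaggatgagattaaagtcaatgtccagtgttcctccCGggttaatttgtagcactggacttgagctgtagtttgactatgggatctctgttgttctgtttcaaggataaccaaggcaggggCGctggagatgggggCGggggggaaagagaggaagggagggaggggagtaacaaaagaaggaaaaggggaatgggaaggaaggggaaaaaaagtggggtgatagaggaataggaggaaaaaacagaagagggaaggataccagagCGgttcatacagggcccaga
The Hoxa5 window held 29 CG, a count that 12.9% of all promoters reach. The Hoxa2 window held 9, a count that 45.8% of promoters reach, and the Hoxa9 window held 4, which 68.6% reach. These counts describe the letters only.

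The table held 14121 cells, 7186 from control embryos (39144013 UMIs) and 6935 from Eed-cKO embryos (35343604 UMIs), with 576432 to 4513505 UMIs per library and a median of 4731 and 4377 UMIs per cell. Among 14019 distinct barcodes, 101 occurred in more than 1 library. Eed itself was at 28.7 to 33.0 UMIs per 1000000 UMIs of the embryo (CPM) in the control embryos and at 19.5 to 27.9 in the Eed-cKO embryos, without overlap (log2 fold change -0.45 ± 0.08 (SE), edgeR adjusted p = 0.00045), and its 3' tag need not lie in the deleted exons. In 3 Eed-cKO libraries, 1 each of embryos 4, 5 and 9, unnamed cluster 22, with erythroid, pituitary and tanycyte genes such as Alas2, Cga and Crym among its leading genes, and unnamed cluster 25, led by Ttr, together made up 12.96% to 28.9% of the cells, and 1 control library held 1207 cells, more than any other. Nearly all of that share was cluster 22, with 43, 77 and 72 cells against 3, 4 and 1 of cluster 25. Of the 61 cells of cluster 25, 8 lay in these libraries. Over all their cells these 3 Eed-cKO libraries had HoxA at 138 to 154 CPM. Without these 4 libraries HoxA stood at 111 to 163 CPM over the 8 Eed-cKO embryos that remained and at 1 UMI in the controls.

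Nearly undetected in the control hypothalamus, all 8 HoxA genes were detected in each of the 9 Eed-cKO embryos. In All-Hypo cells, meaning every cell outside the endothelial-like, pericyte or smooth muscle-like, leptomeningeal-like and microglia or macrophage-like clusters, with unnamed clusters included, 4646 HoxA UMIs were counted among 32983714 UMIs of Eed-cKO and 1 among 37518308 UMIs of controls. That 1 UMI came from Hoxa10 in a neuron-like cell of control embryo 1. A count of 0 over the control embryos allows a level of up to 0.0800 CPM (3 UMIs of the total), and this floor, like all intervals here, covers counting error only.

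Hoxa9, Hoxa10, Hoxa7 and Hoxa5, the middle of the cluster, were the most abundant. Over the 9 Eed-cKO embryos the lowest, median and highest levels were 22.8, 36.1 and 47.0 CPM for Hoxa9, and 17.5, 34.6 and 41.0 CPM for Hoxa10. For Hoxa7 they were 22.98, 25.6 and 35.1 CPM, and for Hoxa5 18.99, 24.6 and 30.3 CPM. Every Eed-cKO embryo thus lay above every control embryo for these 4 genes. Hoxa3 stood at 4.91, 7.001 and 14.3 CPM, Hoxa11 at 3.56, 6.16 and 9.80 CPM, Hoxa2 at 4.09, 6.39 and 8.21 CPM, and Hoxa4 at 1.59, 3.46 and 6.00 CPM. The 4 weaker genes are the 3 at the 3' end of the cluster and the 1 at the 5' end, and for them too the embryos of both genotypes did not overlap.

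**Figure D1:**
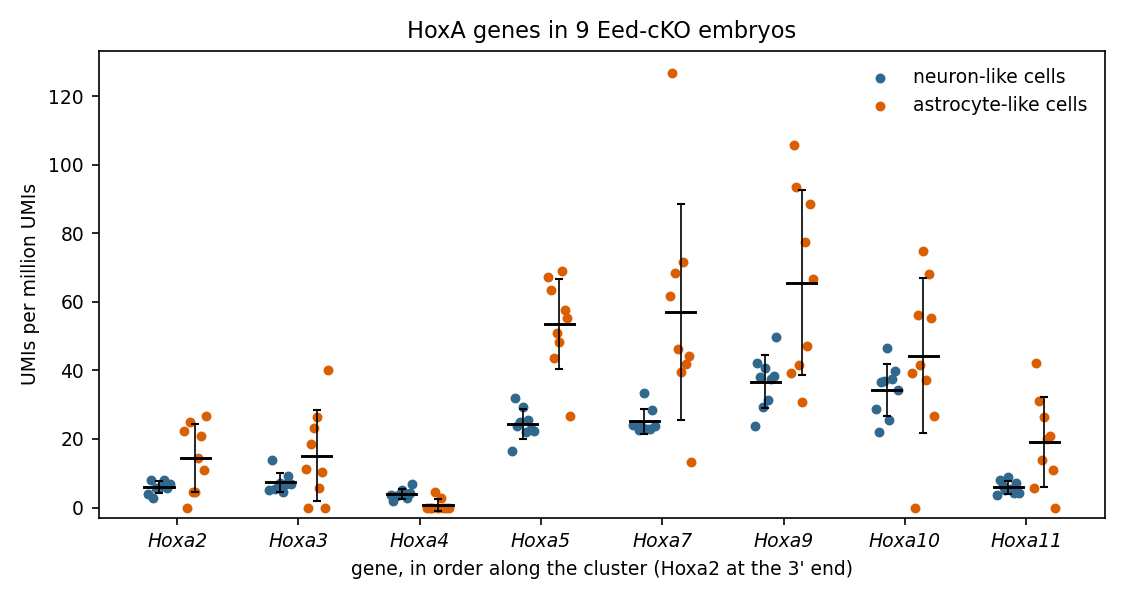
Level in CPM (linear axis) of each HoxA gene in neuron-like (blue) and astrocyte-like (orange) cells, with genes in their order along the cluster, a point for each of the 9 Eed-cKO embryos, a black line at the mean and error bars for the SD. In both cell kinds the means of Hoxa5, Hoxa7, Hoxa9 and Hoxa10 stand above those of Hoxa2, Hoxa3, Hoxa4 and Hoxa11, and Hoxa4 is at 0 in most astrocyte-like sums.

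Of the 8 genes, 7 passed the filter on low values and all 7 were higher in Eed-cKO (edgeR quasi-likelihood test on UMIs summed per embryo, 6 against 9 embryos), against 15.3% of the 12545 genes tested. With 0 control UMIs, or 1 for Hoxa10, a member could pass that filter only through the Eed-cKO embryos. The direction of these calls was therefore given in advance, and their count is a description. Of all 3474 calls 55.2% were higher, or 67.7% of 3396 when libraries were scaled by size and not by TMM, where the same count of members, 7, was higher. Adjusted p-values ran from 1.1e-14 for Hoxa10 to 1.3e-08 for Hoxa11. Against the control floor, Hoxa9 was at least 420.5-fold higher, Hoxa7 at least 328-fold, Hoxa5 at least 302-fold, Hoxa3 at least 83.8-fold, Hoxa11 at least 80.003-fold and Hoxa2 at least 75.1-fold. Hoxa10, with its 1 control UMI, was 1279-fold higher, with a 95% counting interval of 229 to 50544. Hoxa4 fell short of the median level the filter asks for, and its UMIs, 122 against 0, put it at least 46.3-fold higher. In sums over many cells, fewer cells with a gene and less RNA per cell cannot be told apart, so detection within cells is given next.

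A HoxA UMI was found in 1829 of 6454 All-Hypo cells of Eed-cKO embryos (28.3%) and in 1 of 6839 control cells. By gene the share ran from 1.75% for Hoxa4 to 11.9% for Hoxa10. Since such shares rise with depth, each cell was thinned to 2000 UMIs and shallower cells were left out (1015 of the Eed-cKO cells). At that depth 19.2% of 5439 Eed-cKO cells held a HoxA UMI (95% Wilson interval 18.2% to 20.3%), and the embryos ranged from 15.2% to 23.5%.

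HoxA transcripts occurred in neurons, astrocytes, ependymal cells and dividing progenitors of Eed-cKO embryos, and were scarce in tanycytes and in cells of vessels, meninges and blood origin. Cells were clustered without any gene whose symbol begins with Hox, and a cluster was given the name of a cell kind where enough marker genes of that kind were raised in it. The 4651 neuron-like Eed-cKO cells raise Snap25, Stmn2 and other neuron genes, and the 352 astrocyte-like cells raise all 8 astrocyte markers, among them Aqp4, Aldh1l1 and Gfap. At 2000 UMIs a HoxA UMI was found in 18.9% of 4307 neuron-like cells (812 cells; interval 17.7% to 20.05%; 19.3% ± 3.44, SD over 9 embryos). In astrocyte-like cells the share was 34.6% of 269 (93 cells; 29.1% to 40.4%; 33.0% ± 8.80, SD, n = 9). The share without thinning was 27.97% and 49.1%, at a median of 4827 and 3739 UMIs per cell.

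Oligodendrocyte precursor-like cells, few in number, held a HoxA UMI in 11 of 31 cells (35.5%; 21.1% to 53.1%) and ependymal-like cells, the ciliated lining of the ventricle, in 47 of 185 (25.4%; 19.7% to 32.1%). Cycling progenitor-like cells held one in 16 of 119 (13.4%; 8.45% to 20.7%). Tanycyte-like cells, which raise Rax and line the floor of the third ventricle, held one in 12 of 196 (6.12%; 3.54% to 10.4%). The intervals of astrocyte-like and tanycyte-like cells thus lie on either side of that of neuron-like cells, over cells of shared embryos. Endothelial-like cells were at 4 of 98 (4.08%), leptomeningeal-like cells at 5 of 219 (2.28%), microglia or macrophage-like cells at 1 of 27 (3.70%) and pericyte or smooth muscle-like cells at 0 of 17, which allows a share of up to 17.6%.

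**Figure D2:**
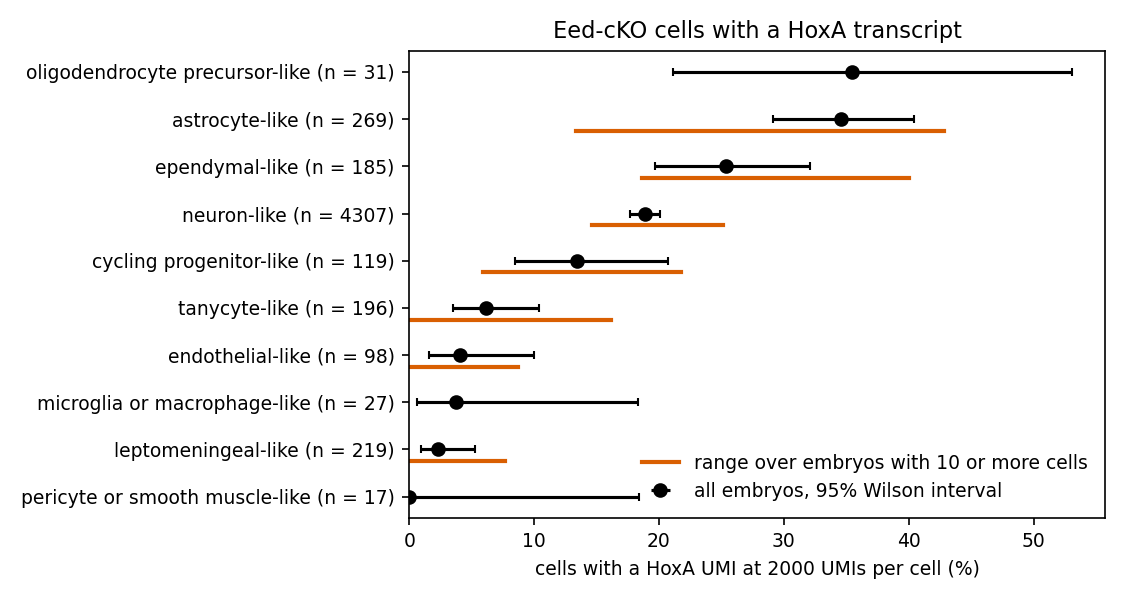
Percent of Eed-cKO cells with a HoxA UMI after thinning to 2000 UMIs per cell (horizontal axis, linear from 0), by cell kind, with the number of cells in brackets, points for the share over all cells of the kind, error bars for its 95% Wilson interval, and orange lines for the range over embryos with at least 10 cells. Astrocyte-like cells are at 34.6%, neuron-like cells at 18.9% and tanycyte-like cells at 6.12%.

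A droplet may also capture free RNA of other cells, whose amount was not measured here on its own. The HoxA level of endothelial-like cells was 18.2% of that of neuron-like cells, and the 7 neuron markers stood at 10.4% to 18.4% of their own neuron level in those cells. Leptomeningeal-like cells held 11.2% of the neuron HoxA level and 8.82% to 12.5% of the neuron markers, and pericyte or smooth muscle-like cells 11.5% and 19.6% to 45.7%. In these 3 kinds the HoxA sum thus lay within or below the range of the neuron markers, while single members could lie above it, as Hoxa9 did in endothelial-like cells at 35.1% of its neuron level, from 9 UMIs. Microglia or macrophage-like cells held 41.0% of the neuron level, from 9 UMIs, against 8.61% to 27.6% for the neuron markers. In control embryos no cell outside the neuron-like class held a HoxA UMI, for astrocyte-like cells 0 of 336, which allows a share of up to 0.893%.

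Astrocytes held higher HoxA levels than neurons, gene by gene except at Hoxa4 and Hoxa10. Summed over the 8 genes, the level was 200.3, 265.8 and 338 CPM (lowest, median and highest of 9 embryos) in astrocyte-like cells and 109, 145 and 177 CPM in neuron-like cells, with no overlap. Hoxa5 was at 26.7, 55.4 and 68.9 CPM in astrocyte-like and at 16.5, 23.8 and 32.02 CPM in neuron-like cells. It was higher in the astrocyte-like cells of 9 of 9 embryos, although the ranges overlap (log2 fold change 1.06 ± 0.23 SE, edgeR with embryo as a block, adjusted p = 2.2e-05). Hoxa11 (0, 20.1 and 42.3 CPM against 3.58, 5.36 and 9.04) was higher by 1.52 ± 0.39 on the log2 scale (8 of 9 embryos, adjusted p = 0.00037), and Hoxa7 (13.4, 46.2 and 127 CPM against 22.6, 23.9 and 33.5) by 0.96 ± 0.23 (8 of 9, adjusted p = 0.00012).

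Hoxa2 was higher in astrocyte-like cells by 1.18 ± 0.42 on the log2 scale (6 of 9 embryos, adjusted p = 0.014), Hoxa3 by 1.06 ± 0.41 (7 of 9, adjusted p = 0.022) and Hoxa9 by 0.62 ± 0.21 (8 of 9, adjusted p = 0.0075). Hoxa10 differed by 0.34 ± 0.22 (adjusted p = 0.19). Hoxa4 stood out with 2 UMIs in 352 astrocyte-like cells against 103 in the neuron-like ones, a ratio of neuron to astrocyte levels of 3.08 with a counting interval of 0.831 to 25.8 (adjusted p = 0.090). In all, 6 of 8 members were higher, against 23.6% of 14451 genes, with a median log2 fold change of 1.01 over the members and -0.16 over all genes. The call depends on how cells are taken: 1 member, Hoxa2, was called after thinning to 2000 UMIs, where Hoxa3 stood at -0.60, and 0 where astrocytes were typed cell by cell from their own markers (134 cells of 7 embryos, with Hoxa9 and Hoxa11 then at -0.16 and -0.25).

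Tanycyte-like, cycling progenitor-like and endothelial-like cells were lower than neurons in some members, and ependymal-like cells were called in none. Tanycyte-like cells (8 embryos, HoxA at 0 to 75.9 CPM, median 32.3) were lower in 5 of 8 members, against 26.6% of genes. Hoxa9 fell by 2.78 ± 0.47 on the log2 scale (adjusted p = 2.9e-08), Hoxa7 by 2.36 ± 0.51, Hoxa10 by 2.31 ± 0.43 and Hoxa5 by 1.47 ± 0.44, and Hoxa11, with 0 UMIs, was at least 1.86-fold lower. Hoxa2, Hoxa3 and Hoxa4, with 2 to 4 UMIs each, did not pass the test, so that Hoxa2 to Hoxa5 made up 47.7% of the 44 HoxA UMIs of tanycyte-like cells and 28.3% of the 3606 of neuron-like cells.

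Ependymal-like cells (8 embryos; 113 to 264 CPM, median 173) had 0 of 8 members called, and 0 at an unadjusted p under 0.05, against 57.3% of genes called in that fit. The log2 fold change against neurons was 0.15 ± 0.33 for Hoxa5, 0.37 ± 0.31 for Hoxa7 and -0.18 ± 0.29 for Hoxa10. After thinning to 2000 UMIs 2 members, Hoxa2 and Hoxa5, were called lower, and Hoxa5 then stood at -1.44. Cycling progenitor-like cells (6 embryos; 25.3 to 156 CPM, median 119) were lower in Hoxa9 alone, 21.2 against 33.0 CPM (log2 fold change -0.95 ± 0.40, adjusted p = 0.040), against 25.1% of genes, and the call was lost when sums were scaled by size and not by TMM. Endothelial-like cells (6 embryos) were lower in Hoxa5, Hoxa7, Hoxa9 and Hoxa10, against 28% of genes. For Hoxa10, 1 UMI was found in them and the ratio of neuron to endothelial levels was 23.1 (4.14 to 915), and for Hoxa5, also with 1 UMI, it was 15.6 (2.79 to 618). Scaling by library size moved the median of all genes by 0.15 to 0.31 on the log2 scale in these comparisons of cell kinds, and raised the higher share of all calls from 43.1% to 56.3% for cycling, from 42.7% to 57.6% for tanycyte-like and from 42.2% to 55.1% for ependymal-like cells. No called member changed direction under that scaling, while the uncalled Hoxa7 in cycling progenitor-like cells (from -0.0037 to 0.25) and Hoxa10 in ependymal-like cells (from -0.18 to 0.13) did.

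Along the cluster the levels peaked over Hoxa5 to Hoxa10 and were lower at both ends. Because each UMI is 1 captured 3' end, levels are compared between genes in UMIs whatever the length of the transcript. In neuron-like cells the geometric mean over 9 embryos was 36.2 CPM for Hoxa9, 33.7 for Hoxa10, 25.2 for Hoxa7 and 24.2 for Hoxa5, then 7.15 for Hoxa3, 5.89 for Hoxa11, 5.88 for Hoxa2 and 4.11 for Hoxa4. This order was set from the same 9 embryos, so that the direction of each mean step was given in advance and its p-value is descriptive. Among the 7 neighbours in this order, the step from Hoxa5 down to Hoxa3 was 1.76 ± 0.37 (SD) on the log2 scale and held in 9 of 9 embryos (exact sign-flip permutation test, two-sided, p = 0.0039, the smallest that 9 embryos allow; adjusted p = 0.027). Hoxa10 exceeded Hoxa7 by 0.42 ± 0.28 in 8 of 9 embryos (exact permutation p = 0.0078, adjusted p = 0.027). Mira, which shares its lower coordinate with Hoxa7, had 770 UMIs over all Eed-cKO cells. UMIs of Hoxa7 and Mira cannot be told apart with certainty, so that the steps at Hoxa7 hold for UMIs as counted. The same limit applies to Hoxa3 and Hoxa11 and the genes that overlap them. Hoxa9 and Hoxa10 differed by 0.10 ± 0.41 (adjusted p = 0.65), Hoxa7 and Hoxa5 by 0.057 ± 0.28 (adjusted p = 0.65), Hoxa3 and Hoxa11 by 0.28 ± 0.43 (adjusted p = 0.15), Hoxa11 and Hoxa2 by 0.0032 ± 0.64 (adjusted p = 1) and Hoxa2 and Hoxa4 by 0.52 ± 0.66 (adjusted p = 0.091), in the same exact permutation test. These neighbours did not differ beyond the spread between embryos. Hoxa4 lies within the annotated span of Hoxa3, as does Hoxa5, and had the lowest level. Hoxa7 to Hoxa11 together made up 71.7% of HoxA UMIs in neuron-like cells (63.2% to 74.5% by embryo) and 67.9% in astrocyte-like cells (53.3% to 81.2%).

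HoxA RNA was far from even among neurons. The 13 neuron-like clusters with at least 50 Eed-cKO cells ranged from 5.61 to 621 CPM, with a median of 30.6. Cluster 0, whose 10 leading genes include Tfap2b, Gata3 and Tal1, genes of hindbrain and midbrain neurons, Lamp5, and the Hox genes Hoxc10, Hoxc13, Hoxd10 and Hoxa10, which were not used to form it, held 1536 Eed-cKO and 54 control cells. Its HoxA level was 339 CPM, with 251, 334 and 369 CPM as the lowest, median and highest of 9 embryos, and it held 33.0% of the neuron-like cells, 32.1% of their UMIs and 77.5% of their HoxA UMIs. Hoxa10 was at 87.1 CPM, Hoxa9 at 78.0, Hoxa7 at 61.3 and Hoxa5 at 57.4, and Hoxa4, the lowest, at 10.1. At 2000 UMIs 44.6% of 1440 cells of cluster 0 held a HoxA UMI, and 5.93% of the 2867 neuron-like cells outside it.

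Cluster 15, with Dlx6os1, Lhx6, Dlx1as and Dlx2, genes of young GABA neurons, in the lead, held 195 Eed-cKO and 142 control cells and had the highest level, 621 CPM (299, 446 and 921 CPM over 7 embryos with 10 cells; 37.3% of 150 cells at 2000 UMIs). Hoxa9 alone stood at 209.6 CPM there and Hoxa2 at 31.1. Clusters led by Avp and Dmrta2 (14.04 CPM), Emx2 and Cck (6.24 CPM), Barhl1 and Nts (5.61 CPM) and Foxb1 (14.6 CPM), genes of hypothalamic neurons, were at the low end, below the 16.5 to 25.6 CPM of the unnamed Ttr, leptomeningeal-like and endothelial-like clusters. The clusters were made from these cells, so that their levels are a description and were given no test. The share of cells in cluster 0 ran from 18.3% to 31.7% over the 26 Eed-cKO libraries.

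**Figure D3:**
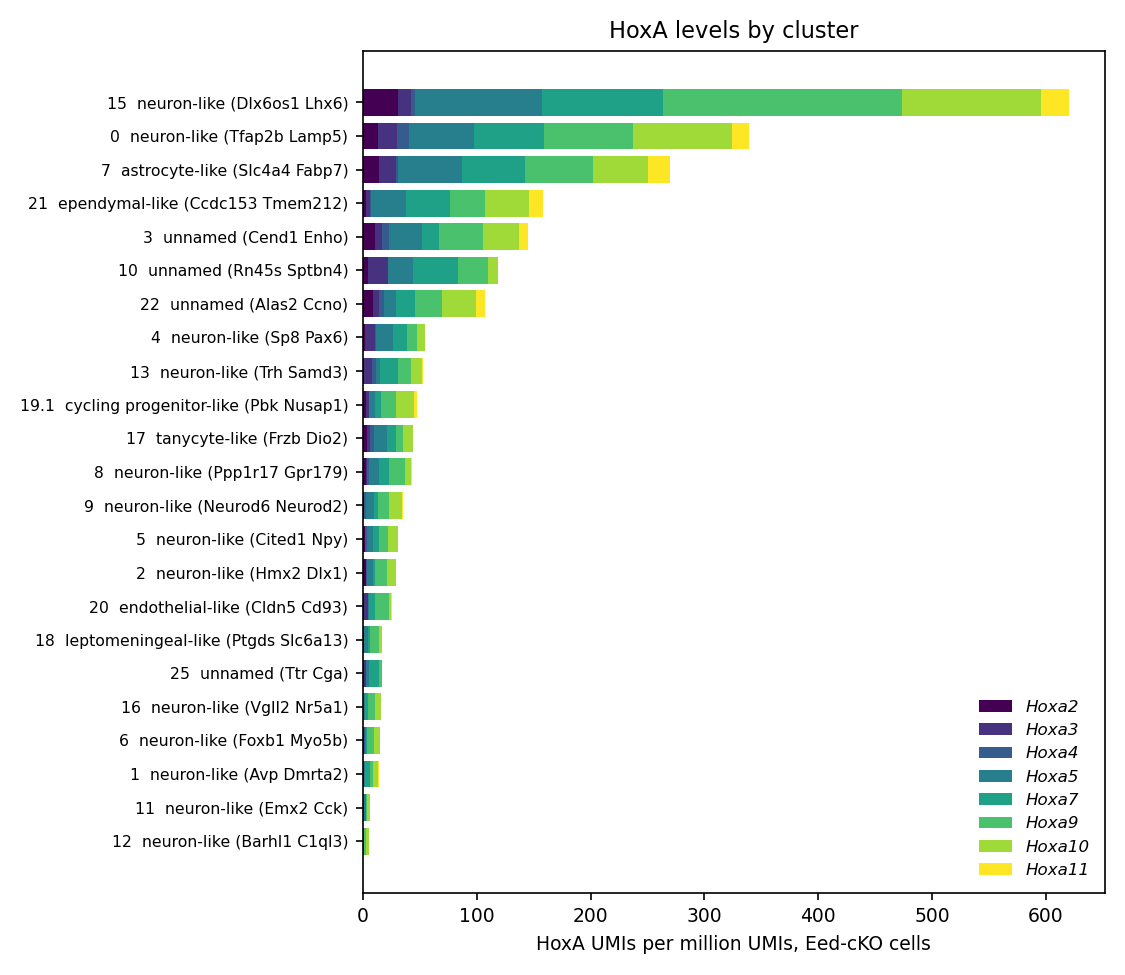
HoxA level in CPM of Eed-cKO cells in the 23 clusters with at least 50 such cells (horizontal axis, linear from 0), each bar divided by gene and each row named by cell kind and leading genes. Cluster 15 reaches 621 CPM and cluster 0 339 CPM, followed by the astrocyte-like cluster at 269.7 CPM.

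The members moved together over clusters. Between pairs of members, Pearson's r of log2(CPM + 1) across the 23 clusters ran from 0.45 to 0.92, with a median of 0.77 over 28 pairs. This is a description over clusters that share libraries and depth. Outside the Hox clusters, the genes whose pattern over these clusters was among the most like the mean of the members, of 10813 genes compared, included Nkx2-3 (r = 0.83), Nkx2-5 (0.82), En1 (0.77) and Barx1 (0.74), all of them transcription factor genes. Nkx2-5, a heart factor, had 336 UMIs in Eed-cKO and 0 in control cells, and Barx1, known from stomach and jaw, 465 and 1. Nkx2-3, a factor of spleen and gut, had 495 and 15 UMIs, with a log2 fold change between genotypes of 5.13 ± 0.29 (edgeR adjusted p = 2.4e-11). En1, a factor of the midbrain and anterior hindbrain, had 444 and 207 (1.21 ± 0.33, adjusted p = 0.0099).

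GABA neurons held more HoxA RNA than glutamate neurons. Neuron-like cells were divided by their UMIs for Slc32a1, the vesicular GABA transporter, and Slc17a6, a vesicular glutamate transporter. GABA-only cells (572) had 231 CPM, with 70.8, 175 and 310.2 CPM as the lowest, median and highest embryo, and Glut-only cells (1985) had 68.0 CPM, with 37.3, 68.3 and 106 CPM, so that the embryos' ranges overlap. At 2000 UMIs, 24.6% and 11.2% of these cells held a HoxA UMI. Cells with both transcripts (974) were at 223 CPM (176 to 269.7) and 34.2%, and 71.9% of them were in cluster 0, as were 40.6% of the GABA-only and 18.2% of the Glut-only cells. Cells with both had a median of 6236 UMIs, against 4316 for GABA-only and 5319 for Glut-only cells. Cells with neither transcript (1120; median 3315.5 UMIs) were at 158 CPM (78.8 to 333 by embryo) and 15.4%, and 21.6% of them were in cluster 0.

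Hoxa9 stood at 61.2 CPM in GABA-only and 15.9 in Glut-only cells and was higher in 9 of 9 embryos (log2 fold change 1.84 ± 0.20, edgeR, adjusted p = 1.2e-17). Hoxa5, at 46.5 and 10.6 CPM, was higher by 1.96 ± 0.24 (8 of 9), Hoxa7 by 1.503 ± 0.24 (8 of 9), Hoxa10 by 1.45 ± 0.21 (8 of 9) and Hoxa11 by 1.71 ± 0.47 (6 of 9, adjusted p = 0.0067). In all 5 of 8 members were higher, against 2.60% of 13331 genes. Hoxa2 differed by 1.43 ± 0.51 (adjusted p = 0.059), Hoxa3 by 1.16 ± 0.45 (adjusted p = 0.10) and Hoxa4 by 0.60 ± 0.60 (adjusted p = 0.70). Without the cells of cluster 0, a step added once the data had been seen, 5 members were again higher in GABA-only cells, with Hoxa5 at 3.12 and Hoxa9 at 1.97 on the log2 scale in 8 embryos. Thinned cells left 3 members called, and library size scaling, which raised the higher share of all calls from 34.7% to 50.2%, gave 6.

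Neuropeptide neurons ranged from some with as much HoxA RNA as neurons at large to others with little. A cell was taken as a peptide cell with at least 3 UMIs of the peptide gene, because single UMIs of abundant peptide genes can also be found in other cells. Of 28 peptide genes, 10 had at least 10 such neuron-like cells in at least 4 Eed-cKO embryos, and each was compared with the other neuron-like cells of the same embryos. No member was higher in any of the 10, and 31 of the 80 gene and peptide pairs were lower.

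The cells of Pnoc (prepronociceptin; 392 cells), Penk (proenkephalin; 101) and Sst (somatostatin; 283) were the rich ones. Pnoc cells stood at 110.5, 163 and 244 CPM of HoxA (lowest, median and highest of 8 embryos), Sst cells at 84.9, 148 and 169 CPM (8 embryos) and Penk cells at 86.4, 134 and 183 CPM (5 embryos). At 2000 UMIs 27.4%, 23.8% and 23% of them held a HoxA UMI, against 18.9% of all neuron-like cells, and 61.7%, 54.4% and 54.5% were in cluster 0. None of the 8 members was called in these 3 comparisons (edgeR), where 2.77%, 3.69% and 1.38% of genes were called for Pnoc, Sst and Penk. At an unadjusted p under 0.05 there was 1 member for Pnoc, 1 for Penk and 0 for Sst.

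Cells of Cck (cholecystokinin; 445), Nts (neurotensin; 159) and Tac1 (tachykinin 1; 346) were poor in HoxA RNA. Cck cells were at 0, 19.9 and 34.9 CPM (8 embryos), Nts cells at 4.27, 10.8 and 33.7 CPM (7 embryos) and Tac1 cells at 23.2, 41.8 and 89.8 CPM (8 embryos), each below the 109 CPM of the lowest embryo's neuron-like cells. Over all their cells, Cck cells (22.9 CPM) and Nts cells (13.3 CPM) lay below the 25.6 CPM of endothelial-like cells, and Tac1 cells (41.9 CPM) above it. For Cck and Nts cells, low expression and free RNA of other cells thus cannot be told apart. Of the members, 7 of 8 were lower in Cck cells (all but Hoxa4), against 5.06% of genes, 7 of 8 in Tac1 cells (all but Hoxa3), against 1.68%, and 6 of 8 in Nts cells (all but Hoxa2 and Hoxa4), against 2.86%. In Cck cells Hoxa9 was at 4.14 CPM against 37.9 in other neurons, in the same direction in 8 of 8 embryos (log2 fold change -3.15 ± 0.32, edgeR adjusted p = 8.4e-19). In Tac1 cells it fell by 1.94 ± 0.26. Nts cells held 1 UMI of Hoxa7, a ratio of other neurons to Nts cells of 30.1 (5.37 to 1189), and 0 of Hoxa3 and Hoxa11, at least 2.45-fold and 2.26-fold lower.

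Fewer members were called for the cells of Gal (galanin; 167), Pdyn (prodynorphin; 109), Cartpt (CART peptide; 137) and Npy (neuropeptide Y; 131). Gal cells stood at 26.01, 67.1 and 78.3 CPM (8 embryos), Cartpt cells at 20.3, 36.4 and 92.0 CPM (7 embryos), Pdyn cells at 0, 12.1 and 176 CPM (5 embryos) and Npy cells at 0, 18.02 and 338 CPM (6 embryos). The embryos of the last 2 thus spread over the whole range of the peptides. Hoxa5, Hoxa7, Hoxa9 and Hoxa10 were lower in Gal cells, against 2.73% of genes, and in Pdyn cells, against 1.35%. Hoxa9 and Hoxa10 were lower in Cartpt cells, against 0.621%, and Hoxa9 in Npy cells, against 1.21%. Hoxa9 had a log2 fold change of -1.26 ± 0.31 in Gal, -1.52 ± 0.43 in Pdyn, -1.91 ± 0.44 in Cartpt and -1.79 ± 0.49 in Npy cells. Hoxa2, Hoxa3, Hoxa4 and Hoxa11 did not pass the test in any of these 4, where they had 0 to 6 UMIs.

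**Figure D4:**
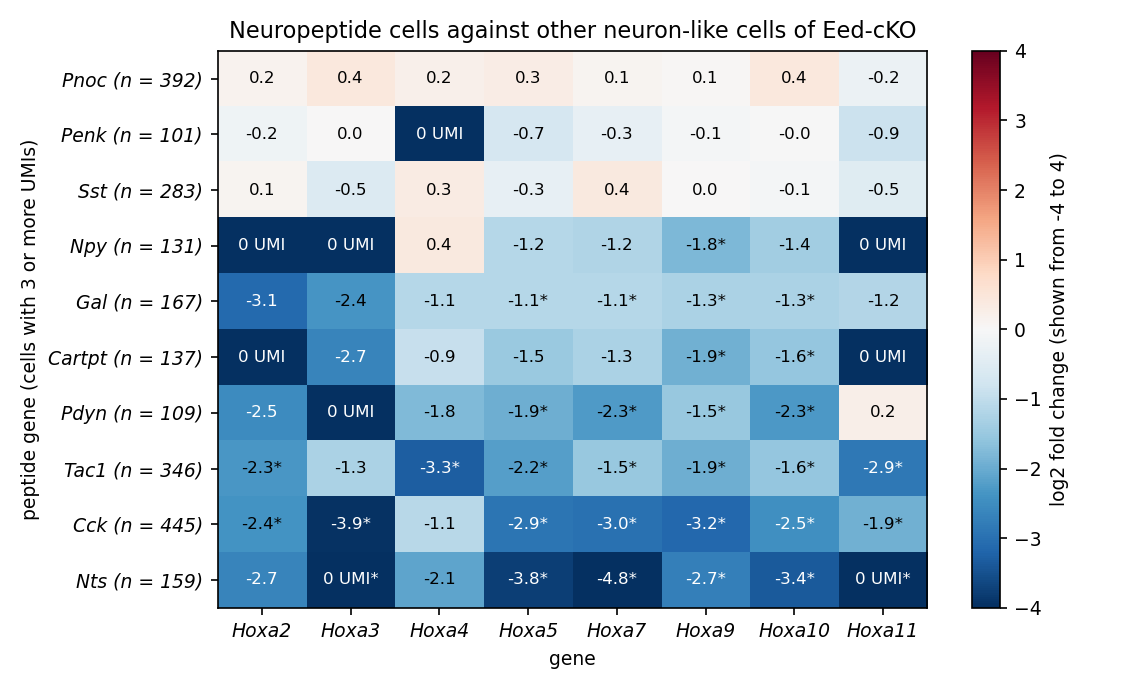
Log2 fold change of each HoxA gene (columns) in cells of each neuropeptide gene (rows) against the other neuron-like cells of the same Eed-cKO embryos, as a colour scale, with an asterisk where the edgeR adjusted p is under 0.05 and "0 UMI" where the peptide cells held none, for which the colour stands for no fold. The 31 marked pairs are all lower, 7 each for Cck and Tac1, 6 for Nts and 0 for Penk, Pnoc and Sst.

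The share of cells in cluster 0 differed between peptides. It held 3.60% of Cck, 5.03% of Nts, 16.5% of Tac1, 21.6% of Gal, 5.51% of Pdyn, 22.6% of Cartpt and 15.3% of Npy cells, and 33.0% of all neuron-like cells. With its cells taken out of both sides, likewise added later, 7 pairs were called over the 9 peptides that still had enough cells: 4 for Nts, 2 for Cck and 1 for Tac1. That step also takes away 77.5% of the neuron-like HoxA UMIs, and Hoxa9 then stood at -2.03 ± 0.45 on the log2 scale for Cck, -2.37 ± 0.73 for Nts and -1.66 ± 0.45 for Tac1, and at -0.78 ± 0.54 for Gal, which was not called. After thinning 16 of the 80 pairs were called.

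The other 18 peptide genes had too few cells for a fit. Pomc cells (50) held 4 HoxA UMIs (12.4 CPM), Trh cells (43) held 3, Avp cells (26) 6, Agrp cells (21) 4, Grp cells (22) 7, Ghrh cells (16) 4 and Kiss1 (20), Tac2 (16) and Pmch (7) cells 1 each. No HoxA UMI was found in 12 Oxt, 8 Crh, 3 Vip, 1 Gnrh1 or 1 Npff cells, and Nms, with 6 cells, held 8 UMIs. None of the neuron-like Eed-cKO cells met the 3 UMIs for Hcrt, Qrfp or Npvf. These are single counts over few embryos, so that no level was read from them.

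HoxA genes were found together in single cells more often than their separate shares give, although most cells with a HoxA UMI held 1 of the genes only. In the 4307 neuron-like cells at 2000 UMIs, 540 held 1 of the 8 genes, 192 held 2, 57 held 3, 19 held 4, 3 held 5 and 1 held 6. Over the 28 pairs, both genes of a pair were found together 522 times, where the genes' separate shares give 134, a ratio of 3.89 (2.65, 3.92 and 4.90 as the lowest, median and highest embryo). The ratio was above 1 in 27 of 28 pairs, and the exception was Hoxa2 with Hoxa4, found in 0 cells where 0.423 were expected.

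Much of this was shared with cluster identity. With the expected number taken within clusters it was 285 and the ratio 1.83, above 1 in 25 of 28 pairs (1.39, 1.57 and 2.35 by embryo), and within cluster 0 alone 383 against 245, or 1.57. All 9 embryos thus lay above 1 in both measures. Hoxa9 and Hoxa10, the most abundant and next to each other, were found together in 77 cells (ratio 4.16). The highest ratios were those of Hoxa11 with Hoxa9 (6.69; 22 cells) and with Hoxa10 (6.05; 19 cells), and that of Hoxa11 with Hoxa7 was low (1.16; 3 cells).

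Distance along the cluster made little difference to co-detection. Direct neighbours had a ratio of 3.99, pairs 2 steps apart 4.05, and pairs 3, 4, 5 and 6 steps apart 3.58, 3.60, 3.75 and 3.78. Hoxa2 and Hoxa11, 7 steps apart, gave 5.07 from 3 cells. Within clusters the ratios by distance lay between 1.67 and 1.95. HoxA genes were also found with genes of the other Hox clusters more often than their shares give, at 3.07 for the 10 HoxB, 2.83 for the 8 HoxC and 2.70 for the 7 HoxD genes, or 1.47, 1.32 and 1.28 within clusters. These are counts over cells of shared libraries, and no test was run on them.

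**Figure D5:**
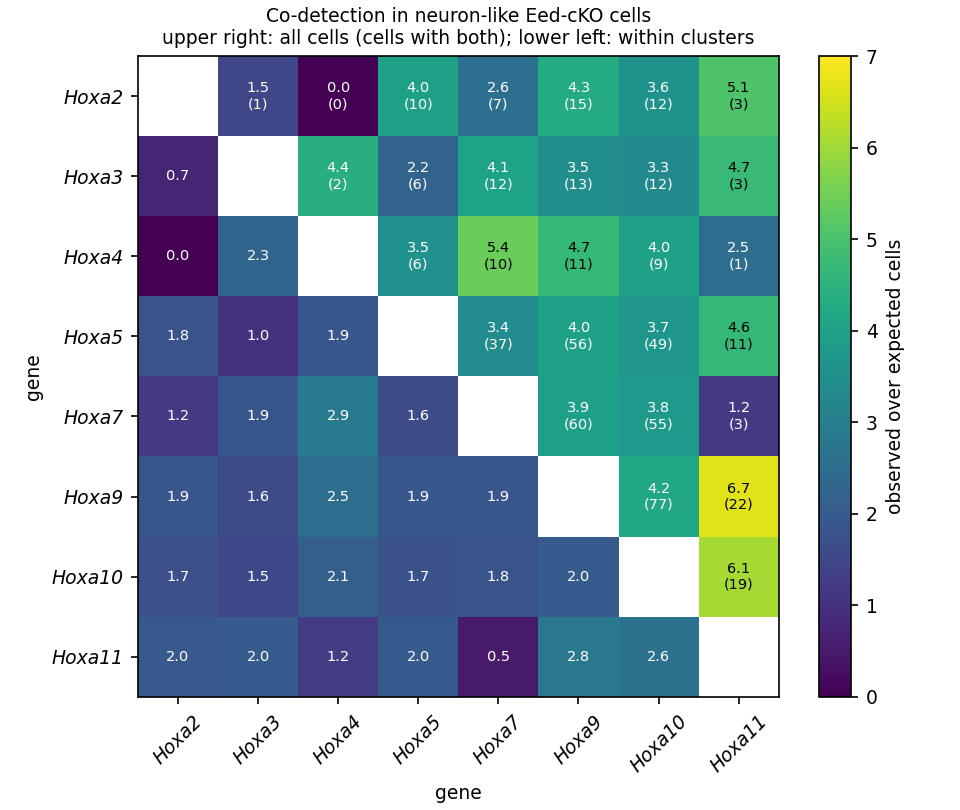
Ratio of the observed to the expected number of neuron-like Eed-cKO cells with both genes of a pair, as a colour scale, for the 28 pairs of HoxA genes in their order along the cluster at 2000 UMIs per cell, with the number of cells in the upper right. The upper right is over all cells (overall ratio 3.89) and the lower left is within clusters (1.83).

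The HoxA genes moved with their relatives. In the comparison of genotypes, 18 of the 25 other Hox genes passed the filter and 18 of 18 were higher (7 of 10 HoxB, 6 of 8 HoxC and 5 of 7 HoxD genes), with a median log2 fold change of 8.73 against 9.27 for the members and 0.01 over all genes. These 18 had 0 control UMIs, or 1 for Hoxb13. They too could pass the filter only through Eed-cKO embryos, so that their direction was given in advance. Hoxc10, a trunk gene, was at 50.1 to 89.2 CPM in Eed-cKO embryos, above every HoxA gene. Of 9 cofactor genes of the Meis, Pbx and Pknox families, with which Hox proteins bind DNA, 3 were higher and 0 lower: Meis1, at 18.99 to 39.8 CPM against 5.55 to 10.9 in controls (log2 fold change 1.90 ± 0.17), Pbx4 (0.32 ± 0.11) and Pknox2 (0.22 ± 0.08). Of 12 genes that regulate Hox genes in the embryo, 7 were tested. The retinoic acid receptors Rara (0.67), Rarb (0.48) and Rarg (0.91), the retinoic acid-degrading enzyme gene Cyp26b1 (1.33) and the hindbrain factor Egr2 (2.11 ± 0.33) were higher, and Gbx2, a factor of the anterior hindbrain and thalamus, was lower (-2.13 ± 0.60). Among the 4 core genes of PRC2, Eed was lower, and Ezh1 (0.16 ± 0.17), Ezh2 (0.20 ± 0.10) and Suz12 (-0.01 ± 0.07) did not pass the test.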

How the data were processed

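Hypothalamus pieces of 6 control and 9 Eed-cKO E18.5 mouse embryos were sequenced by the authors with the SureCell 3' kit. Reads were aligned to mm10 (STAR 2.5.2b, with SAMtools 1.3 also listed, per the submitters' processing notes), and UMIs were counted per gene and cell with the SureCell pipeline. The deposited values are raw UMI counts, from which the authors had removed cells with few UMIs or genes. Genotype came from the labels, and embryo and litter from the library names.

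Cells were clustered in scanpy 1.11.5 without Hox genes (2000 variable genes, 30 components, 15 neighbours, Leiden resolution 1) and named where at least 3 markers of a list were raised 2-fold and found in at least 10% of cells. Neuron markers were compared with the clusters of other names, ties were settled by the share of a list that was raised, and cluster 19 was split further, all 3 after the data were seen. Doublets were kept, and removing the 6% most doublet-like cells was an alternative. UMIs were summed per embryo, and per cell kind with embryo as a block for comparisons within Eed-cKO, since both sums come from 1 animal. They were tested with edgeR 4.0.16 (quasi-likelihood, TMM, two-sided, Benjamini-Hochberg over all genes, threshold 0.05). The filter asked for 15 UMIs over the sums and 2 in one, and between genotypes also a median log2 CPM of 1.5. A cell kind or peptide needed 10 cells in an embryo. Levels were compared between genes by an exact sign-flip permutation test with 0.5 UMIs added. Named genes were all 8 members, markers, overlapping genes, those of the 5 genes most like the members that are reported here, and fixed lists of Hox genes, cofactors, regulators and PRC2 genes. Members and lists were chosen with earlier results of these data known. Alternatives were DESeq2 1.42.0, limma 3.58.1 (voom with TREAT), other scaling, filters, depths, cell typing and left-out embryos. The fitting code was tested on simulated counts. Depth limits each share to the counting error of its cells. A Hoxa4 promoter and protein sequences were not used here.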

Additional observations from a re-analysis of the deposited data

Results flagged for a closer look

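In groups of 4 to 10 embryos, 35 sets of HoxA levels were examined for a lowest or highest value far from the others, and 6 were marked. Chance alone marks about 1 in 20 of separate sets. These sets overlap, since All-Hypo cells include the neuron-like cells and the HoxA sum includes each gene. The number of marks therefore cannot be read against that rate. Among the 6 control embryos, embryo 1 stood apart with Hoxa10, and with it the HoxA sum, at 0.156 CPM in All-Hypo and 0.170 CPM in neuron-like cells, from 1 UMI, with the other 5 at 0. Among the 9 Eed-cKO embryos, embryo 2 stood apart with Hoxa3 at 14.3 CPM in All-Hypo cells (9 UMIs, next highest embryo 9.03) and at 14.01 CPM in neuron-like cells (7 UMIs, next highest 9.32). That embryo was the shallowest, with 658175 UMIs.

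Noncoding rows of the HoxA cluster also had UMIs in Eed-cKO cells. Mira, a noncoding transcript at the Hoxa7 end, had 770 UMIs against 0 in controls, and its pattern over the 23 clusters had r = 0.96 with the mean of the members. Hoxa11os, antisense to Hoxa11, had 196 against 0, Hotairm1, a noncoding transcript at the 3' end of the cluster, 92 against 7, Hoxaas3 20 against 0 and Hoxaas2 11 against 0. Reads of Hoxa11 and Hoxa11os, and of Hoxa7 and Mira, cannot be told apart with certainty.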

How the results depend on the processing

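Member calls between genotypes stayed at 7 or 8 under every alternative, 8 without the filter, in neuron-like cells alone or after thinning, and 7 to 8 with an embryo left out. In each of them members came to be tested only through UMIs of Eed-cKO embryos. Calls over all genes were 3474, and 1493 with limma and TREAT, 5881 with libraries as samples, 1836 in neuron-like cells, 2272 after thinning and 2836 to 3855 with an embryo left out.
Astrocyte-like calls went from 6 to 1 after thinning and 0 in cells typed one by one, cycling from 1 to 2 after thinning and 0 by library size, ependymal from 0 to 2 after thinning, endothelial from 4 to 2 in typed cells, GABA from 5 to 3 after thinning and peptides from 31 to 16 after thinning and 7 without cluster 0. Hoxa3 in astrocyte-like cells (-0.60) and Hoxa5 in ependymal-like cells (-1.44) turned direction after thinning, Hoxa9 (-0.16) and Hoxa11 (-0.25) in typed astrocytes, and Hoxa10 in Cartpt cells (0.12) without cluster 0; the cause was not tested.
With 9 embryos 2 steps in the order of levels were called, with thinned cells 1, and with an embryo left out 0 to 3, 8 embryos allowing no exact p below 0.0078. The mean share of neuron-like cells with a HoxA UMI was 19.3%, and 12.6% at 1000 UMIs, 22.8% at 4000, 28.4% unthinned and 8.06% for at least 2 UMIs. The co-detection ratio of 3.89 was 1.83 within clusters.
Without the embryo block, member calls were 6 for astrocyte-like, 1 for cycling, 5 for tanycyte-like, 0 for ependymal-like, 5 for endothelial-like, 6 for GABA-only and 25 for peptide cells. No pairing was possible between genotypes, since no litter held both. Of 974 single-gene alternatives 856 kept their side of the threshold, where values that were not called could change sign, 95 lost and 18 gained the call and 5 reversed, with a call before or after. For peptides, library size scaling moved the higher share of all calls from 23.9%–41.0% to 38.7%–58.3%. Typing cells one by one was not run for cycling, tanycyte, ependymal and oligodendrocyte precursor cells, nor any fit of the last.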

Other observations

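Outside the named cell kinds, 830 Eed-cKO cells were in clusters that bore no name. They held 286 HoxA UMIs, or 103 CPM. Cluster 3, a group of shallow neuron-marker cells with a median of 1148 UMIs, stood at 145 CPM, and cluster 10, likewise shallow, at 118 CPM. Cluster 22, found in Eed-cKO embryos alone (223 cells), stood at 107 CPM and held a HoxA UMI in 20.3% of 217 cells at 2000 UMIs, where Hoxa10 was at 29.8 CPM and Hoxa9 at 23.95. Cluster 25 (61 cells, also in Eed-cKO embryos alone) held 6 HoxA UMIs, or 16.5 CPM.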
